A study of Mus musculus with 6 samples.

Results

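The genes that move ions and water across epithelial membranes were examined in sorted cells of the mouse endometrium, the inner lining of the uterus. They were taken from the count table by symbol: Cftr, the anoctamins (Ano), the Clca genes, the ENaC subunits (Scnn1a, Scnn1b and Scnn1g), the aquaporins (Aqp), and the Slc4a, Slc8a, Slc9a, Slc12a and Slc26a transporter families. This rule gave 77 of the 26586 genes in the table, in 10 families. It also caught 3 genes named after a transporter that encode other proteins: the adaptors Slc9a3r1 and Slc9a3r2, and Slc4a1ap. The mice carried Axin2rtTA, in which the Axin2 promoter drives the doxycycline-dependent activator rtTA, and tetOH2BJGFP, a histone-GFP reporter that rtTA switches on. Ovaries were removed from all of them at an age of 4 weeks, doxycycline followed after 2 weeks of rest, and uteri were taken 4 days after that; the labelled age is 6 weeks. Endometrial epithelial cells were sorted into a GFP+ fraction, labelled Axin2+, and a GFP- fraction, labelled Axin2-, with 3 libraries of ribosomal RNA-depleted total RNA from each. Libraries are numbered by mouse, but the labels also speak of pooling, so the p-values may measure only the spread between libraries of a pool.

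As background, epithelia secrete fluid by loading chloride across the basolateral membrane with the cotransporter NKCC1 (Slc12a2), driven by the sodium gradient of the Na,K-ATPase, and releasing it through apical channels such as CFTR and the calcium-activated channel TMEM16A (Ano1), with sodium and water following. Absorption runs the other way, with sodium entering through the epithelial sodium channel ENaC. In the uterus, CFTR and ENaC are known for setting the volume of luminal fluid under the control of ovarian steroids. These genes are not all restricted to epithelium: several families also serve pH, volume and calcium control in muscle, stroma and nerve.

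Of the 77 genes, 54 had enough reads to be tested, and 20 differed between the fractions at an adjusted p under 0.05 (edgeR quasi-likelihood test, Benjamini-Hochberg over 16896 genes). These were 37.0% of the genes of the set that were tested, where 27.3% of all genes tested differed. The libraries labelled Axin2+ were higher for 12 of them, which is 22.2% of the set against 14.5% of all genes, and lower for 8, which is 14.8% against 12.8%. The median log2 fold change was 0.08 over the set and -0.01 over all genes tested, and every fold change here is Axin2+ over Axin2-. Where 3 values stand against 3 others, those of the libraries labelled Axin2- come first, and each 3 are in the order of mice 1, 2 and 3. Mouse numbers are those of the labels, and with the pooling they may not stand for separate mice. Genes that rose were Cftr, Ano2, Ano5, Ano9, Clca3, Clca4, Slc26a2, Slc9a3r1, Slc12a2, Slc12a7, Scnn1a and Aqp11. Genes that fell were Ano1, Ano4, Ano10, Slc26a10, Slc4a3, Slc4a7, Slc12a4 and Slc8a2. The anoctamins, the Slc26a transporters and the Slc12a cotransporters each held genes that rose and genes that fell. The groups of libraries did not overlap for 32 of the 54 (59.3%, where 47.2% of all genes tested had this property), and those 32 include all 20 that passed. With scaling by library size alone, the split of the set became 15 higher and 6 lower and that of all genes 3255 and 1573, from 2447 and 2171, and the median of all genes moved to 0.16. The lower count moved with the libraries included: it was 5 without the mouse 1 library labelled Axin2-, 4 without the mouse 3 library labelled Axin2- and 4 without the mouse 2 library labelled Axin2+.

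**Figure D1:**
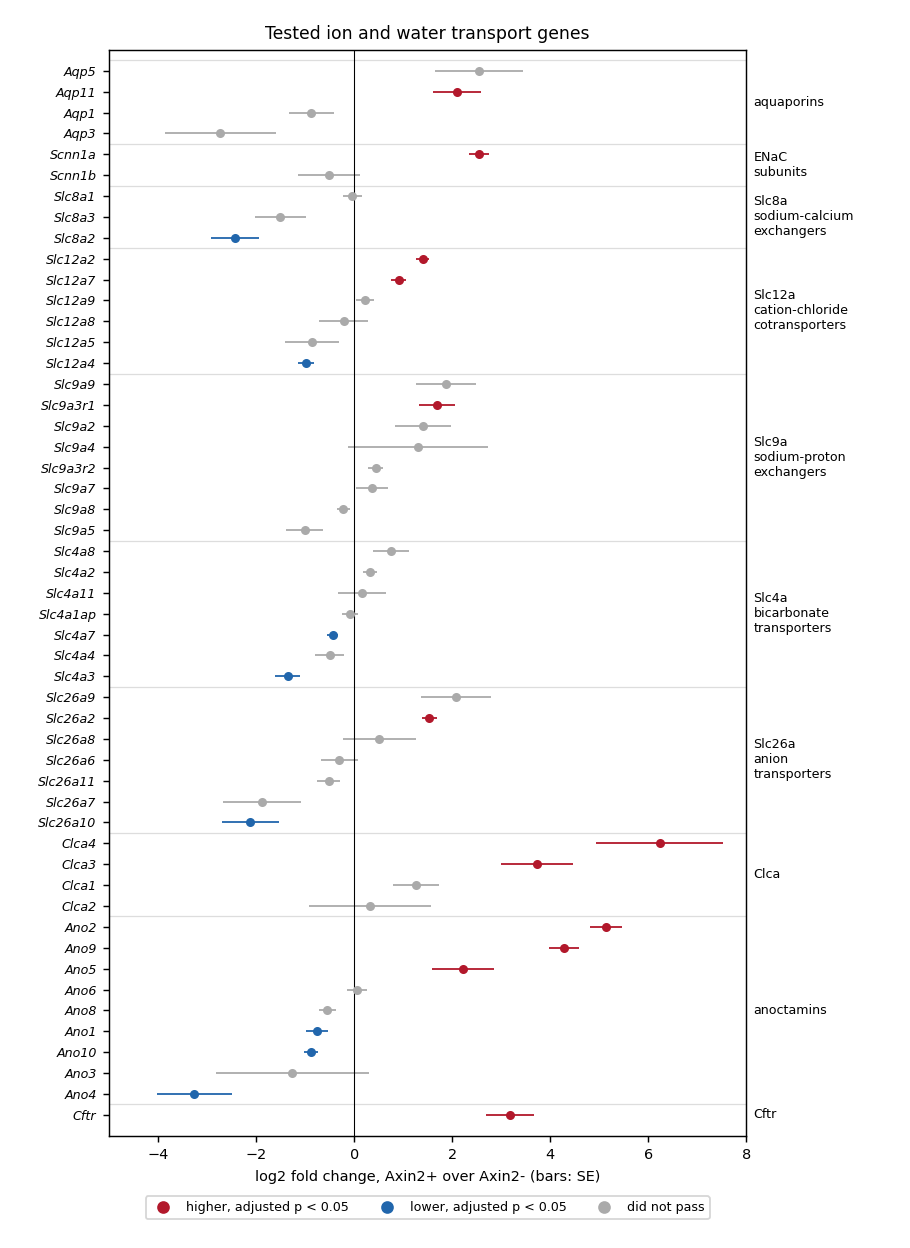
Log2 fold change (x axis, Axin2+ over Axin2-, bars SE) of 51 of the 54 tested genes, grouped by family along the y axis, with red for higher, blue for lower and grey for genes that did not pass. Anoctamins lie on both sides of 0, from -3.26 for Ano4 to 5.14 for Ano2, whereas the tested members of Clca lie above it.

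Each library held between 49714402 and 59597315 counted reads. The Axin2 transcript itself was at 369, 357 and 356 CPM (each count over the library total, times 1e6, with TMM scaling) in mice 1, 2 and 3 for the libraries labelled Axin2- and at 165, 243 and 299 CPM in those labelled Axin2+. It thus went against the labels, although the difference did not pass (-0.61 ± 0.21, edgeR adjusted p = 0.071). The fractions differed in their cell type markers as well. All 18 of 18 general epithelial markers were higher in the libraries labelled Axin2+, with a summed level of 3402 to 4481 CPM against 270.1 to 394 CPM. Of 12 smooth muscle and pericyte markers 10 fell, and their sum was 2436 to 6190.2 CPM in the libraries labelled Axin2- and 225 to 439.9 CPM in the others. Of 13 stromal fibroblast markers 9 fell, with sums of 11098 to 22036 CPM and 3452 to 4829 CPM. Pdgfra, Col1a1, Col3a1 and Thy1 lost their call without the mouse 2 library labelled Axin2+ (edgeR adjusted p from 0.0574 to 0.0766). Hoxa11, Hand2 and Hoxa10, which had not passed, did so without the mouse 3 library labelled Axin2+ (edgeR adjusted p from 0.00868 to 0.0213). Both fractions are labelled as endometrial epithelial cells. Of 12 macrophage and immune markers 7 rose (Csf1r, Lyz2, Emr1, Cd68, C1qa, C1qb and C1qc) and 3 fell (Cd3e, Cd79a and Nkg7), with sums of 66 to 348 CPM in the libraries labelled Axin2- and 624 to 3512 CPM in the others. All 7 that rose lost their call without the mouse 1 library labelled Axin2- (edgeR adjusted p from 0.0528 to 0.0932). Cd79a and Nkg7 lost theirs without it as well (0.101 and 0.0579). Of 10 endothelial markers 6 rose and none fell, and of 8 mesothelial markers 5 rose and 1 fell. The endothelial calls of Pecam1, Kdr and Flt1 were lost without the mouse 2 library labelled Axin2+. All 7 tested markers of uterine gland and all 8 of luminal epithelium rose. No marker of the general epithelial, smooth muscle or endothelial list was at 0 in any library. The part these markers play in the results on transport genes was not tested, and in bulk libraries fewer cells of a type and less RNA per cell cannot be told apart.

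Promoter sequence was read for the set from RefSeq (GRCm38.p6, windows of 250 bases before to 50 bases after an annotated start). A gene can have several such starts. It covered 68 windows of 54 of the 77 genes, and these are not the same 54 as the tested genes. The Clca genes were left out because their symbols could not be tied to a locus. Other genes had no window, among them Ano9, Slc26a2, Slc12a2 and Scnn1a, which rose. The stretches printed are from promoters of 4 genes that rose and 3 that fell, chosen so that a reader can see where the searched motifs do and do not stand. All are written 5′ to 3′ on the gene's own strand, and capitals mark a motif match.
Cftr (chr6:18170607-18170686, plus strand): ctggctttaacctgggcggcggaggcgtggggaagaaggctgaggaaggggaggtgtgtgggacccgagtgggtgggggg
Ano2 (chr6:125690339-125690418, plus strand): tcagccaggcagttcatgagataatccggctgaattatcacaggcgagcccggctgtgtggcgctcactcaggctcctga
Slc9a3r1 (chr11:115163210-115163289, plus strand): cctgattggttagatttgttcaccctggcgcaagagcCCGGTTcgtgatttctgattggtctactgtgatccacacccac
Slc12a7 (chr13:73763612-73763691, plus strand): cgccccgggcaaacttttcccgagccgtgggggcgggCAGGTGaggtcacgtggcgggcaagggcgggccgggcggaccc
Ano1 (chr7:144738607-144738686, minus strand): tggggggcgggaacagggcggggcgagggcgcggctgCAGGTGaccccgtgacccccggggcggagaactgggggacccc
Slc12a4 (chr8:105966116-105966195, minus strand): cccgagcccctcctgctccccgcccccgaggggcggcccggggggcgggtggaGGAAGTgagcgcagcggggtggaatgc
Slc8a2 (chr7:16129746-16129825, plus strand): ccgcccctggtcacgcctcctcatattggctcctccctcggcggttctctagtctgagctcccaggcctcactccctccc
The capitals in the Slc9a3r1 line are the reverse complement of the GRHL motif AACCGG, those in the Slc12a7 and Ano1 lines are the reverse complement of the E2-box CACCTG, and those in the Slc12a4 line are the ETS motif GGAAGT. Motifs were searched on both strands, and matches of different motifs may overlap. A printed stretch is only part of a gene's windows. The Ano1 stretch lies inside the gene's span (144588549 to 144751974 on the minus strand), before an internal start and not at the 5′ end of that span. Ano2, whose line shows no match, holds the E2-box and GGAAGT in stretches that are not printed. The E2-box stood in 33 of the 68 windows (48.5%, where 20.2% of all 32851 windows hold it). The GRHL motif stood in 3 (4.41% against 6.83%), the forkhead motif TGTTTAC in 2 (2.94% against 3.65%) and GGAAGT in 16 (23.5% against 23.8%). Counted by gene, the E2-box was in 28 of the 54 genes with a window. Windows of the same gene can overlap and hold the same match, as for Slc12a7, so windows are not independent. Median GC content was 59.2% in the member windows and 52.7% in all windows. Of the called genes with a window, the E2-box was found in 3 of 6 that rose (Ano2, Ano5 and Slc12a7) and 3 of 8 that fell (Ano1, Slc4a3 and Slc4a7). The matches are a description of letters and say nothing of binding.

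Among chloride channels, Cftr, the cAMP-gated apical channel (ENSMUSG00000041301, chromosome 6, 18170687 to 18322768 on the plus strand of GRCm38), was at 1.03, 2.99 and 0.968 CPM in mice 1, 2 and 3 for the libraries labelled Axin2- and at 17.6, 14.8 and 13 CPM in those labelled Axin2+. All 3 libraries labelled Axin2+ lay above all 3 others. The log2 fold change was 3.18 ± 0.48 (SE), with an adjusted p of 0.00381 (edgeR); the mouse 2 library labelled Axin2- was the highest of its group, and without it the fold change was 3.92.

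The anoctamins gave 3 genes that rose, 3 that fell and 3 that did not pass among 9 tested. Ano1, the calcium-activated chloride channel of glands and smooth muscle (ENSMUSG00000031075, chromosome 7, 144588549 to 144751974 on the minus strand), had the highest mean CPM of all 77 genes. It was at 313, 352 and 335 CPM in the libraries labelled Axin2- and at 189, 142 and 259 CPM in those labelled Axin2+, and the groups did not overlap. It fell by 0.76 ± 0.22 (SE) on the log2 scale (edgeR adjusted p = 0.0389). The call was lost with scaling by library size alone (adjusted p = 0.0923) and without any 1 of 5 libraries, all but the mouse 3 library labelled Axin2+ (adjusted p from 0.0839 to 0.103). Summed smooth muscle and pericyte markers in the same libraries were 6190.2, 2436 and 5144 CPM, labelled Axin2-, and 225, 356 and 439.9 CPM, labelled Axin2+. Among the libraries labelled Axin2- Ano1 was highest in mouse 2, where the marker sum was lowest, and the part of these markers in the result was not tested.

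Ano2, a calcium-activated chloride channel known from olfactory neurons (ENSMUSG00000038115, chromosome 6, 125690419 to 126040126 on the plus strand), was at 0.564, 1.07 and 1.21 CPM in the libraries labelled Axin2- and at 29.4, 30.8 and 40.1 CPM in those labelled Axin2+. Ano9 was at 0.447, 0.612 and 0.741 CPM against 10.3, 11.7 and 13.2 CPM. Both rose in all 3 mice, with log2 fold changes of 5.14 ± 0.33 (SE) and 4.29 ± 0.31 (SE) (edgeR adjusted p = 2.51e-04 and 3.02e-04), the largest fold changes of the family. Ano10 moved the other way, from 32.1, 29.6 and 28.2 CPM to 14.8, 17.9 and 16.4 CPM (-0.87 ± 0.14 (SE), edgeR adjusted p = 0.00516). Ano4 and Ano5 passed less firmly. Ano4 was at 7.52, 9.07 and 33.8 CPM against 0.656, 1.7 and 2.9 CPM (-3.26 ± 0.77 (SE), edgeR adjusted p = 0.0208), and the mouse 3 library labelled Axin2- stood above the others of its group. Without that library the fold change was -2.23 (adjusted p = 0.0542), and without the mouse 2 library labelled Axin2+ the adjusted p was 0.0747. Ano5, linked to muscle disease, was at 0.797, 1.38 and 0.309 CPM against 4.85, 2.04 and 4.8 CPM (2.23 ± 0.63 (SE), edgeR adjusted p = 0.0373). It lost the call with a block for mouse (adjusted p = 0.0869) and on leaving out the libraries labelled Axin2- of mice 1 or 3 or Axin2+ of mice 1 or 3 (adjusted p from 0.0727 to 0.102). Ano6, a phospholipid scramblase and ion channel, was among the 5 highest genes of the set in mean CPM, at 147, 97.4 and 133 CPM against 161, 128 and 105 CPM with overlapping groups (adjusted p = 0.86). Ano8 was below in every library labelled Axin2+ (27.6, 23.2 and 33.3 CPM against 17.3, 20.1 and 19.97 CPM) without passing (adjusted p = 0.0533), but passed without the mouse 2 library labelled Axin2- (0.0346), and the authors' deposited table gives an FDR of 0.0483. Ano3 had few reads and did not pass (adjusted p = 0.585), and Ano7, with 17, 10 and 3 reads against 9, 7 and 11 reads, was not tested.

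The Clca genes, named for calcium-activated chloride channel regulators, are described by symbol only, because these symbols have been given to different loci in different annotations. Of 4 tested, 2 rose and none fell. Clca3 was at 1.65, 14.3 and 14.8 CPM in the libraries labelled Axin2- and at 110.4, 152 and 145 CPM in those labelled Axin2+ (3.73 ± 0.73 (SE), edgeR adjusted p = 0.0102), with the mouse 1 library labelled Axin2- the lowest. Clca4 had 0, 1 and 0 reads against 12, 62 and 30 reads. That is 1 read against 104, a ratio of 99.3 after scaling (exact 95% counting interval 17.4 to 3959); the fitted log2 fold change was 6.23 (edgeR adjusted p = 0.0126) and 8.10 without the mouse 2 library labelled Axin2-, which held that 1 read. Without the mouse 2 library labelled Axin2+ it was 5.49 and did not pass (adjusted p = 0.0584). Clca4 entered the test only through its reads in the libraries labelled Axin2+. It was not tested with the filters of at least 1 CPM or above 0.5 CPM in 3 libraries. Clca1 (2.72, 0.821 and 1.98 CPM against 5.23, 3.91 and 4.13 CPM) had groups that did not overlap and did not pass (adjusted p = 0.0852), and Clca2, at 0.564, 0 and 1.11 CPM against 0.673, 1.02 and 0.391 CPM, had overlapping groups. Clca5, with 18 and 32 reads, and Clca6, with 0 and 1, were not tested.

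**Figure D2:**
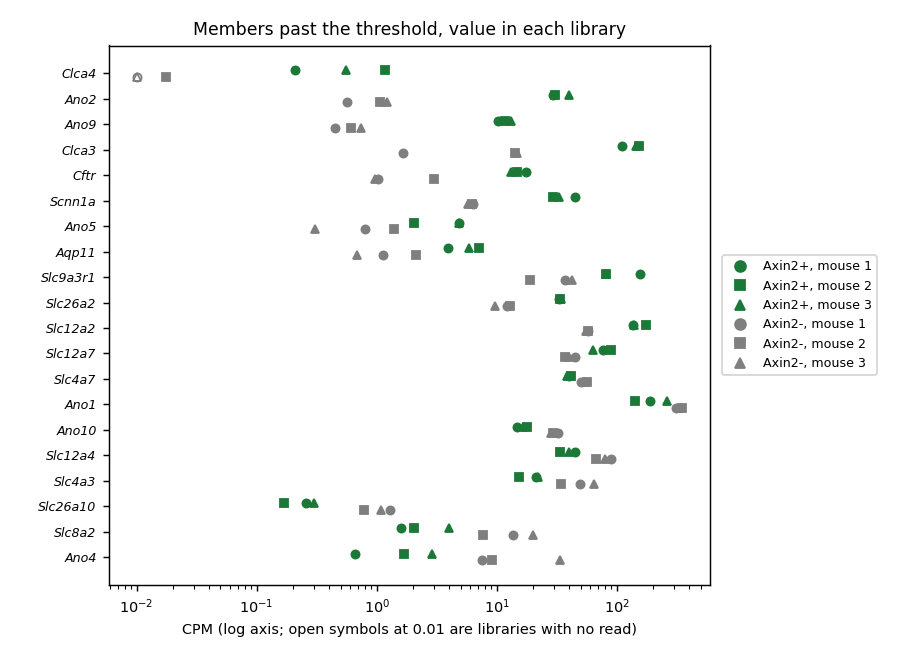
CPM in each library (x axis, log scale) of the 20 genes that passed (y axis), with 3 libraries per fraction and open symbols at 0.01 for libraries with no read. The 2 groups do not overlap for any of the 20, and the gap is widest for Ano2, Ano9 and Clca4.

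Of the Slc26a anion transporters, 1 of 7 tested rose and 1 fell. Slc26a2, the sulfate transporter that supplies sulfate to proteoglycans, was at 12.2, 12.9 and 9.64 CPM in the libraries labelled Axin2- and at 33, 33.6 and 34 CPM in those labelled Axin2+, which agreed closely with each other. Its log2 fold change was 1.53 ± 0.16 (SE) (edgeR adjusted p = 8.88e-04). Slc26a10 was low throughout, at 1.3, 0.786 and 1.09 CPM against 0.259, 0.17 and 0.298 CPM, and fell by 2.12 ± 0.58 (SE) on the log2 scale (edgeR adjusted p = 0.0333). That call was lost with mouse as a block (adjusted p = 0.0681), with no filter on low counts and without any 1 library (adjusted p from 0.0527 to 0.123), and its gene overlaps the protein-coding B4galnt1, from whose reads its own cannot be told with certainty. Slc26a7, at 6.26, 7.48 and 11.7 CPM against 0.345, 1.91 and 4.65 CPM, had groups that did not overlap and did not pass (adjusted p = 0.123), but passed without the mouse 3 library labelled Axin2+ (log2 fold change -2.91 in place of -1.88, adjusted p = 0.0362). Slc26a9, an epithelial chloride transporter, was below 1 CPM in every library (0.0778, 0.105 and 0.103 CPM against 0.466, 0.264 and 0.502 CPM) and did not pass (adjusted p = 0.0689). Slc26a6, a chloride-bicarbonate and oxalate exchanger, was at 4.51 ± 1.83 and 3.65 ± 0.484 CPM (SD, n = 3 each), Slc26a11 at 11 ± 2.78 and 7.7 ± 0.0586 CPM and Slc26a8 at 0.964 ± 0.651 and 1.38 ± 0.915 CPM, and none of these passed. Slc26a1, Slc26a3, Slc26a4 and Slc26a5 were not tested, and Slc26a3, a chloride-bicarbonate exchanger known from gut, had no read. Slc26a1 had 1, 4 and 43 reads against 4, 0 and 0 reads, nearly all from the mouse 3 library labelled Axin2-.

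The Slc4a bicarbonate transporters gave 2 genes that fell and none that rose, of 7 tested. Slc4a3, the anion exchanger AE3 of heart and brain (ENSMUSG00000006576, chromosome 1, 75546266 to 75562172 on the plus strand), was at 49.7, 34.3 and 65 CPM against 21, 15.4 and 21.8 CPM (-1.35 ± 0.26 (SE), edgeR adjusted p = 0.00906). The sodium-bicarbonate cotransporter Slc4a7 (NBCn1) was at 50.7, 56.4 and 54.5 CPM against 39.97, 41.3 and 38.3 CPM. Its difference was small (-0.43 ± 0.11 (SE), edgeR adjusted p = 0.0264) and was lost with mouse as a block (adjusted p = 0.0566), with library size alone (0.133) and without any 1 library (adjusted p from 0.0603 to 0.0859). Slc4a2, the anion exchanger AE2 and among the 5 highest genes of the set in mean CPM, was at 93.8, 78.7 and 81.2 CPM against 104, 122 and 91.1 CPM, with overlapping groups (adjusted p = 0.133). Slc4a4, the electrogenic sodium-bicarbonate cotransporter NBCe1, was at 69.8, 72.2 and 53.2 CPM against 67.2, 30.04 and 40.9 CPM and passed without the mouse 1 library labelled Axin2+ (adjusted p = 0.0252, 0.247 with it). Slc4a8, a sodium-driven chloride-bicarbonate exchanger, at 5.54 ± 1.93 and 9.33 ± 2.96 CPM (SD, n = 3 each), Slc4a11, at 2.47 ± 0.847 and 2.77 ± 1.33 CPM, and Slc4a1ap, at 48.2 ± 8.94 and 45.6 ± 3.38 CPM, did not pass.

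Among the Slc9a genes, 1 of 10 tested passed, and it is not an exchanger. Slc9a3r1 encodes NHERF1, the adaptor that ties CFTR and the sodium-proton exchanger NHE3 to ezrin at the apical membrane (ENSMUSG00000020733, chromosome 11, 115163341 to 115181181 on the plus strand). It was at 37.3, 19.1 and 42.2 CPM in the libraries labelled Axin2- and at 155, 80.8 and 81.8 CPM in those labelled Axin2+, and rose in all 3 mice (1.69 ± 0.37 (SE), edgeR adjusted p = 0.0161). The related adaptor Slc9a3r2 was at 56.1, 66.3 and 47.7 CPM against 68.1, 87.3 and 75 CPM, with groups that did not overlap, and did not pass (adjusted p = 0.0811; 0.0476 without the mouse 2 library labelled Axin2-). Slc9a9, the endosomal exchanger NHE9, was at 7.89, 5.0 and 9.29 CPM against 53.6, 17.7 and 9.83 CPM, with the mouse 1 library labelled Axin2+ far above the others. It did not pass (adjusted p = 0.0594) but did on leaving out the mouse 3 library labelled Axin2+ (0.0193), and summed macrophage and immune markers in the libraries labelled Axin2+ were 3512, 1957 and 624 CPM in the same order of mice; their part in the result was not tested. Slc9a5 passed without the mouse 2 library labelled Axin2- (adjusted p = 0.0231, 0.0889 with it), while Slc9a2 and Slc9a4, both under 2 CPM in every library, Slc9a7, at 4.36 ± 1.35 and 5.57 ± 0.955 CPM (SD, n = 3 each), and Slc9a8, at 32.8 ± 1.91 and 28.2 ± 2.75 CPM, did not pass. Slc9a10 and Slc9a3, the apical exchanger NHE3, were not tested. Slc9a3 had 1, 12 and 0 reads against 0, 0 and 2 reads, so that nearly all came from the mouse 2 library labelled Axin2-, and without it there was 1 read against 2.

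The cation-chloride cotransporters gave 2 genes that rose and 1 that fell, of 7 tested, and all 3 passed in each of the 16 other settings tried. Slc12a2, the cotransporter NKCC1 that brings sodium, potassium and chloride into the cell (ENSMUSG00000024597), was at 57, 57.3 and 55.7 CPM in the libraries labelled Axin2- and at 135, 175 and 139 CPM in those labelled Axin2+. It was among the 5 highest genes of the set in mean CPM, and rose in all 3 mice (1.40 ± 0.13 (SE), edgeR adjusted p = 6.11e-04). Slc12a7, the potassium-chloride cotransporter KCC4, which carries chloride out, was at 45, 37.1 and 39.97 CPM against 77, 88.9 and 62.9 CPM (0.91 ± 0.16 (SE), edgeR adjusted p = 0.00644). Its relative Slc12a4, KCC1 (ENSMUSG00000017765, chromosome 8, 105943590 to 105966097 on the minus strand), went down, from 88.9, 66.6 and 79.8 CPM to 44.9, 33.5 and 40.3 CPM (-0.99 ± 0.16 (SE), edgeR adjusted p = 0.0051). Slc12a9, at 12 ± 1.86 and 13.9 ± 0.853 CPM (SD, n = 3 each), Slc12a8, at 1.33 ± 0.017 and 1.14 ± 0.508 CPM, and the neuronal Slc12a5 (KCC2), at 1.68 ± 0.695 and 0.921 ± 0.43 CPM, did not pass. Slc12a1 and Slc12a3, the cotransporters of the kidney, had 1 and 57 reads over all libraries and were not tested.

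Of the sodium-calcium exchangers, Slc8a2 fell in all 3 mice, from 13.6, 7.71 and 19.98 CPM to 1.59, 2.04 and 4.02 CPM (-2.43 ± 0.48 (SE), edgeR adjusted p = 0.0104). Slc8a1, the exchanger of heart and many other tissues and the second highest gene of the set in mean CPM, was at 189.7, 118 and 182 CPM against 169.9, 152 and 155 CPM, with overlapping groups (-0.04 ± 0.19 (SE), adjusted p = 0.906). Slc8a3, at 4.41, 10.2 and 3.81 CPM against 1.24, 3.25 and 1.99 CPM, lay below in every library labelled Axin2+ without passing (adjusted p = 0.0702), and passed with mouse as a block (0.0355).

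Of the 3 ENaC subunits 1 rose, 1 did not pass and 1 was not tested. Scnn1a, which encodes the alpha subunit that the channel needs to conduct (ENSMUSG00000030340, chromosome 6, 125320659 to 125344943 on the plus strand), was at 6.28, 6.19 and 5.81 CPM in the libraries labelled Axin2- and at 44.4, 29.3 and 32.8 CPM in those labelled Axin2+ (2.54 ± 0.20 (SE), edgeR adjusted p = 3.82e-04). All 3 libraries labelled Axin2+ lay far above all 3 others. Scnn1b, the beta subunit, was at 5.44, 5.63 and 2.88 CPM against 0.845, 5.21 and 3.68 CPM, with overlapping groups and the lowest value in the mouse 1 library labelled Axin2+ (-0.52 ± 0.63 (SE), adjusted p = 0.578). Scnn1g, the gamma subunit, had 0, 0 and 10 reads against 37, 15 and 5 reads and was not tested. Whether the subunits differ in their change was described only, by the ratio of reads within each library given later.

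Aquaporins, the water channels, gave 1 gene that passed of 4 tested. Aqp11, an intracellular channel, was at 1.13, 2.11 and 0.68 CPM against 3.9, 7.14 and 5.86 CPM (2.10 ± 0.49 (SE), edgeR adjusted p = 0.0196), and the call was lost without the mouse 1 library labelled Axin2- (0.065) or the mouse 2 library labelled Axin2+ (0.0742). Aqp1, the water channel of endothelium and red cells, was at 90.3, 29.95 and 53.5 CPM against 22, 49 and 23.4 CPM and did not pass (adjusted p = 0.197). Endothelial markers summed to 201, 221 and 245 CPM against 241, 465 and 312 CPM. Aqp1 was highest where that sum was highest among the libraries labelled Axin2+, and highest where it was lowest among those labelled Axin2-, and the part of these markers was not tested. Aqp5, the channel of secretory glands, was at 1.69, 0.105 and 0.721 CPM in the libraries labelled Axin2- and at 8.26, 3.29 and 3.18 CPM in those labelled Axin2+. It did not pass (2.55 ± 0.90 (SE), adjusted p = 0.0753), but did with mouse as a block (0.0364) and without the mouse 1 library labelled Axin2- (log2 fold change 3.61, adjusted p = 0.0484). Aqp3, a glycerol and water channel, was at 0.505, 0.245 and 0.391 CPM against 0.0345, 0.132 and 0 CPM and did not pass (adjusted p = 0.115). Of the 7 not tested, Aqp4, the water channel of astrocytes and some epithelia, had 0 reads in each library labelled Axin2- and 10, 23 and 20 in those labelled Axin2+ (at least 5.62-fold higher, from a floor of 3 reads per library). It passed where no filter on low counts was set (edgeR adjusted p = 0.0299) and in DESeq2 (adjusted p = 0.00194). Aqp9 had 15, 1 and 1 reads against 54, 9 and 6 reads, mostly from mouse 1, and Aqp12 had no read. Aqp2, Aqp6, Aqp7 and Aqp8 each had fewer than 10 reads in either fraction.

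Other genes that could not be tested were Slc4a1, Slc4a5, Slc4a9 and Slc4a10, which with those named make 23. Slc4a1, band 3 of the red cell, had 9, 3 and 0 reads against 0, 0 and 0 reads, most of them in the mouse 1 library labelled Axin2-, and erythroid markers summed to 1.77 to 7.39 CPM in the former and 0.205 to 1.13 CPM in the latter. Slc4a9 had 1, 5 and 2 reads against 38, 7 and 2 reads, most of them in the mouse 1 library labelled Axin2+.

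**Figure D3:**
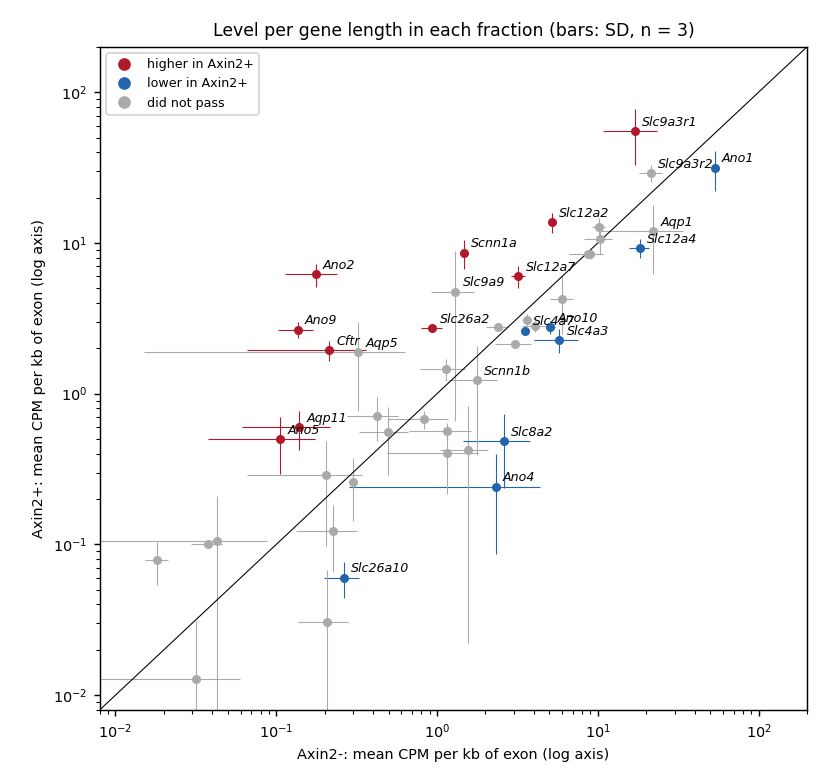
Mean CPM per kb of exon in the libraries labelled Axin2- (x axis) and Axin2+ (y axis), both on log scales, for tested genes with a known length, with SD bars (n = 3). Points on the line have the same level in both, and Ano1 is highest in the libraries labelled Axin2- but not in those labelled Axin2+, where Slc9a3r1 is.

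To compare genes with each other, CPM was divided by the length of each gene's exons. Per kb, the highest genes in the libraries labelled Axin2- were Ano1, with 53.4 ± 3.16, Aqp1, with 22.1 ± 11.6, Slc9a3r2, with 21.4 ± 3.52, Slc12a4, with 18.3 ± 2.62, and Slc9a3r1, with 17.1 ± 6.33 CPM per kb (SD, n = 3). Aqp1, Slc9a3r2, Slc12a4 and Slc9a3r1 did not differ beyond their spread. In the libraries labelled Axin2+ they were Slc9a3r1, with 54.9 ± 22, Ano1, with 31.5 ± 9.49, Slc9a3r2, with 29 ± 3.67, and Slc12a2, with 13.7 ± 1.99 CPM per kb. Here Slc9a3r1 and Ano1, and Ano1 and Slc9a3r2, did not differ beyond their spread. Within libraries, Slc9a3r1 was above Ano1 in all 3 mice (80.3, 42.0 and 42.5 against 30.3, 22.7 and 41.5 CPM per kb), narrowly in mouse 3. The order of Ano1 and Slc9a3r2 changed between mice. Slc12a2 stood in rank 14 in the libraries labelled Axin2- and in rank 4 in those labelled Axin2+, of 70 ranked genes. The 3 ENaC subunits together came to 3.26 ± 0.60 CPM per kb in the libraries labelled Axin2- and 9.94 ± 1.17 in those labelled Axin2+, with Scnn1a at 1.47 ± 0.0606 and 8.59 ± 1.92 and Scnn1b at 1.77 ± 0.583 and 1.23 ± 0.841 CPM per kb. The Slc12a family came to 38.5 ± 3.86 and 39.7 ± 2.65 CPM per kb, so its sum differed by less than the spread.

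**Figure D4:**
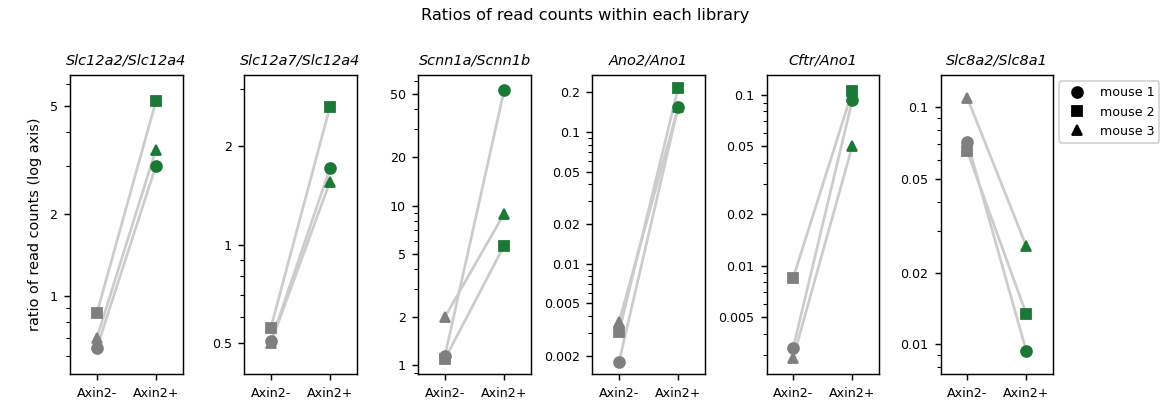
Ratio of the read counts of pairs of genes within each library (y axis, log scale), 1 panel per pair, with 3 libraries per fraction. In each pair the 3 libraries of a fraction lie on their own side, with Slc12a2 over Slc12a4 at 0.641 to 0.861 in the libraries labelled Axin2- and 3.01 to 5.21 in those labelled Axin2+.

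The ratio of reads from 2 genes within a library does not depend on how libraries are scaled. Reads of Slc12a2 (NKCC1) over those of Slc12a4 (KCC1) gave 0.641, 0.861 and 0.698 in mice 1, 2 and 3 for the libraries labelled Axin2-, and 3.01, 5.21 and 3.45 in those labelled Axin2+. Those of Slc12a7 (KCC4) over Slc12a4 gave 0.506, 0.558 and 0.501 against 1.72, 2.65 and 1.56. The ratio of Scnn1a to Scnn1b was 1.15, 1.1 and 2.01 against 52.6, 5.62 and 8.9, with the widest spread in the libraries labelled Axin2+. Each of these ratios was higher in every library labelled Axin2+. Cftr over Ano1 gave 0.0033, 0.00849 and 0.00289 against 0.0929, 0.105 and 0.0502, and Ano2 over Ano1 gave 0.0018, 0.00303 and 0.00362 against 0.156, 0.218 and 0.155. Slc8a2 over Slc8a1 went the other way, with 0.0716, 0.0653 and 0.11 against 0.00934, 0.0134 and 0.0259. These pairs were chosen with the values known and were not tested.

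Other genes of the pathway were described from 6 lists of 88 genes, of which 79 were tested, 26 rose (32.9%, where 14.5% of all genes tested rose) and 14 fell (17.7%, where 12.8% did), with a median log2 fold change of 0.21 against -0.01 over all genes. In the list of CFTR partners the shares that rose and fell were 13.3% and 20%, in that of carbonic anhydrases 25% and 8.33%, and in the other 4 lists 28.6% to 53.8% rose and 0% to 28.6% fell. Among Na,K-ATPase subunits and their FXYD regulators 4 rose and 4 fell of 14. Fxyd4 rose from 4.16 ± 1.43 to 45.5 ± 2.48 CPM, and Atp1b1, the beta1 subunit of the pump, rose from 36.9 ± 8.88 to 158 ± 31.7 CPM (SD, n = 3 each; edgeR adjusted p = 3.32e-04 and 9.60e-04). Fxyd3 also rose, and Atp1a4, Atp1b2, Fxyd1 and Fxyd6 fell, so that Atp1b1 over Atp1b2 went from 0.627, 0.421 and 0.363 to 13.3, 5.39 and 6.45. The lower count of this list was 2 without the mouse 1 library labelled Axin2- or the mouse 2 library labelled Axin2+. Of the WNK, SPAK and OSR1 kinases and their partners, which switch NKCC1 and the KCCs, 5 rose and none fell of 10. Wnk2 rose from 19.3 ± 4.04 to 113 ± 15 CPM and Klhl3, which marks WNK kinases for breakdown, from 2.73 ± 0.502 to 12.3 ± 1.94 CPM (SD, n = 3 each; edgeR adjusted p = 3.50e-04 and 0.00147); the higher count was 3 without the mouse 2 library labelled Axin2+.

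Genes that regulate ENaC gave 7 that rose and 3 that fell of 13. The membrane protease matriptase, St14, rose from 13.4 ± 4.66 to 167 ± 25.2 CPM, and the protease Tmprss4 from 0.435 ± 0.222 to 6.49 ± 1.94 CPM (SD, n = 3 each; edgeR adjusted p = 4.17e-04 and 0.0019). Prss8, Furin, Sgk3, Tsc22d3 and Usp10 also rose, while Nr3c1, the glucocorticoid receptor, Usp2 and Hsd11b2 fell. The call of Hsd11b2 was lost with mouse as a block (adjusted p = 0.123), as was that of Atp1a4 (0.05002), and Sgk1 and Ostm1, which did not pass in the same fit without it, passed with it (0.00593 and 0.0296). The list's higher count was 4 without the mouse 3 library labelled Axin2- or the mouse 2 library labelled Axin2+, and its lower count was 1 without the latter.

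Carbonic anhydrases, which make bicarbonate, gave 3 that rose and 1 that fell of 12. Car2 rose from 6.75 ± 2.86 to 78.3 ± 6.66 CPM and Car12 from 1.68 ± 0.398 to 13.2 ± 1.89 CPM (SD, n = 3 each; edgeR adjusted p = 6.00e-04 and 6.32e-04), Car5b also rose and Car11 fell. Of the partners of CFTR and the cAMP pathway 2 rose and 3 fell of 15. Ezr, the linker ezrin that NHERF1 binds, rose from 139 ± 13.9 to 657 ± 188 CPM, and the cAMP-breaking Pde3a fell from 94.7 ± 18.2 to 31.9 ± 9.25 CPM (SD, n = 3 each; edgeR adjusted p = 7.60e-04 and 0.00478). Adcy6 rose, and Adcy3 and Stx1a fell. Of the CLC, bestrophin and LRRC8 chloride channels 5 rose and 3 fell of 15, with Lrrc8d, a subunit of the volume-regulated anion channel, going from 6.16 ± 1.82 to 37 ± 9.86 CPM and the endosomal Clcn5 from 12.2 ± 5.44 to 56.7 ± 2.66 CPM (SD, n = 3 each; edgeR adjusted p = 0.00141 and 0.00348). Clcn2, Clcn3 and Lrrc8e also rose, and Clcn1, Clcn6 and Best1 fell. Of the 40 calls in the 6 lists, 13 were lost on leaving out at least 1 library, among them those of Atp1a4, Cab39l, Clcn1, Clcn2, Furin, Fxyd6, Hsd11b2, Nr3c1, Oxsr1, Sgk3, Stx1a and Usp10.

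**Figure D5:**
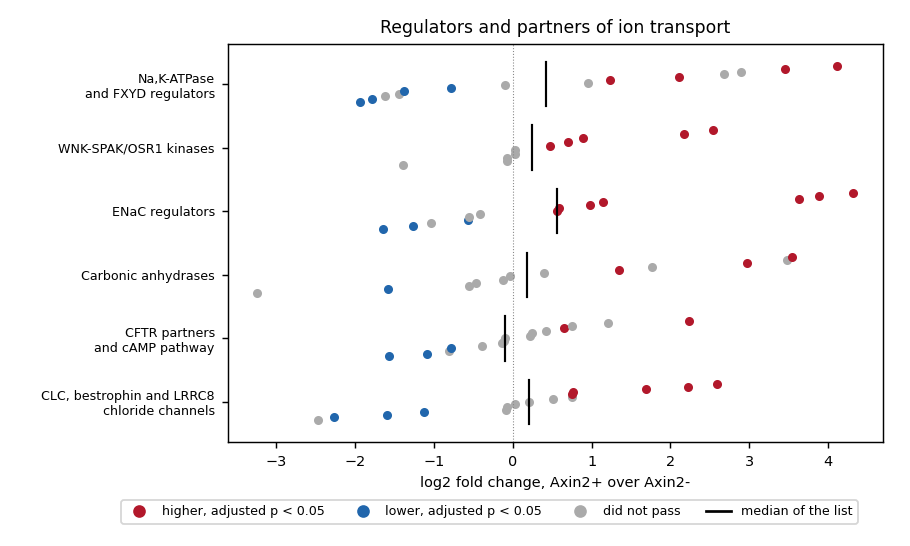
Log2 fold change (x axis, Axin2+ over Axin2-) of the 79 tested genes of the 6 pathway lists (y axis), 1 point per gene, with red for higher, blue for lower, grey for genes that did not pass and a black bar for the median of each list. The lists of ENaC regulators (median 0.57) and of the Na,K-ATPase (median 0.42) hold genes on both sides of 0.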

How the data were processed

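RNA-seq libraries of 3 GFP+ and 3 GFP- fractions sorted from mouse endometrial epithelium were compared. Per gene and library, the authors deposited raw read counts. Build mm10, STAR 2.5.3a and featureCounts 1.5.3 are named in the submitters' processing notes, with edgeR 3.22.5, StringTie 1.3.3 and bcl2fastq 2.20.0.422; annotation version and strand setting were not given in the sources used here. The authors' own comparison table holds, per the file headers, the log2 fold change and mean log2 CPM of each gene, an F statistic taken as a score, and the p-value and FDR. In it 49 genes of the set are listed, with 11 higher and 9 lower at an FDR under 0.05.

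The fit used edgeR 4.0.16 under R 4.3.3 (filterByExpr, TMM factors, robust quasi-likelihood test without a block), with p-values adjusted by Benjamini-Hochberg over 16896 genes and a threshold of 0.05. The fit was also run on simulated counts with known changes, as a check of the code. Far fewer genes were changed there than were called here, so that run does not bear on the calls reported. Alternatives used RLE, upper quartile or library size scaling, no filter, at least 1 CPM or above 0.5 CPM in 3 libraries, DESeq2 1.42.0, a non-robust fit, mouse as a block, leaving out each library, and leaving out 6 ribosomal RNA genes. Mouse numbers in the labels pair the libraries; their deviations from the mean of their fraction had, across genes, correlations of 0.32, 0.03 and -0.12 within mice 1, 2 and 3, and of up to 0.32 between mice.

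Genes were named by a rule: up to 4 genes per family with the smallest p among those that passed, Cftr, the ENaC subunits, the 5 with the highest mean CPM, and 2 per pathway list. Others are given by their counts or were chosen after their values were seen. A few genes enter the counts but are not reported here. The members, lists and pairs of genes for ratios were chosen with earlier results of these data known. Coordinates and exon lengths are from GENCODE M21 on GRCm38, which mm10 names; 70 of the 77 genes matched, and 26 of them overlap another annotated gene, 9 a protein-coding one. Intervals and floors (3 reads per library) reflect counting error alone, because without molecular identifiers reads are not independent molecules.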

Additional observations from a re-analysis of the deposited data

How the results depend on the processing

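No result among the 54 tested genes changed direction while called. Of the 20 calls, 13 were made in each of the 16 other settings: Cftr, Ano2, Ano9, Ano10, Clca3, Slc26a2, Slc4a3, Slc9a3r1, Slc12a2, Slc12a4, Slc12a7, Slc8a2 and Scnn1a. Over all members and settings 797 values kept their side of the threshold, 32 lost it and 22 gained it. Leaving out 1 library at a time gave 14 to 21 calls among the members, with 10 to 14 higher and 4 to 7 lower, the lower count being 5, 4 and 4 without the libraries labelled Axin2- of mouse 1, Axin2- of mouse 3 and Axin2+ of mouse 2. Over all genes it gave 2544 to 4114 calls, with 1491 to 2304 higher and 1053 to 1911 lower, where the main counts were 4618, 2447 and 2171; without the mouse 2 library labelled Axin2+ they were 2544, 1491 and 1053. The pathway lists gave 27 to 40 calls, with 19 to 26 higher and 8 to 15 lower, 8 without that same library. With fewer libraries the spread is estimated from fewer samples, and the cause of the larger losses was not tested.

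The replicate block by mouse gave 19 calls among the members (12 higher, 7 lower), 3954 among all genes and 41 in the pathway lists. Beyond the genes named with their blocked p in the results it changed no other call of a transport or pathway gene reported here. Of the immune markers that rose, Csf1r, Lyz2, Cd68 and C1qb lost their call with the block (edgeR adjusted p = 0.0623, 0.0731, 0.0548 and 0.0576). The endothelial markers Pecam1 and Flt1 lost theirs too (0.106 and 0.118). DESeq2 gave 16 higher and 12 lower members and, beside the 20, called Ano8, Clca1, Slc26a7, Slc9a5, Slc9a9, Slc8a3, Aqp5 and Aqp4. Under DESeq2 the carbonic anhydrases held 5 higher and 2 lower and the WNK list 1 lower, and with the filter of above 0.5 CPM the carbonic anhydrases held 2 lower. With library size alone the ENaC regulators held 1 lower. Genes with few reads, such as Clca4, Slc26a10, Slc26a9, Aqp3 and the 23 not tested, are limited by depth.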
